A study of Arabidopsis thaliana with 12 samples.

Results

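Transcripts of 7 nuclear genes for the light reactions of photosynthesis were followed in Arabidopsis thaliana: PSAN of photosystem I, PSBY, PSBW and PSB27 of photosystem II, LHB1B2 of the antenna, NdhS of the chloroplast NADH dehydrogenase-like (NDH) complex, and CCB3 of cytochrome b6f assembly. They were chosen by name from the 691 genes with a probe of their own, on an array of 3439 probes, of which 692 carry 1 annotated gene. Wild-type plants of the Columbia 0 ecotype behind 6 arrays, called staurosporine arrays here, were kept for 4 h with 2 µM staurosporine and for a further 4 h with 25 mM ascorbate at pH 5.5. Those behind the 6 water arrays, of the same ecotype, had water during the first 4 h and the same ascorbate afterwards. Staurosporine inhibits protein kinases with little selectivity. Ascorbate, or vitamin C, is an antioxidant of plant cells and an electron donor in the removal of hydrogen peroxide. All plants received ascorbate, so no value here is a response to ascorbate itself. The labels give total RNA of plants and name no tissue, and none of the 16 leaf and root marker genes sought had a probe of its own, so the tissue was not checked.

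In the light reactions, photosystem II takes electrons from water and passes them through plastoquinone, the cytochrome b6f complex and plastocyanin to photosystem I, which reduces ferredoxin. Light-harvesting proteins pass excitation energy to the photosystems. The NDH complex returns electrons from ferredoxin to plastoquinone in cyclic flow around photosystem I. The 7 genes studied are in the nucleus, and their proteins act in the chloroplast.

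Levels are given as normalized intensity, a relative scale with no absolute unit, on which only values of the same probe are compared. All 7 probes were above 0 on all 12 arrays, at 3.17 times the lowest usable signal of the array or more. Each change is a log2 ratio, staurosporine over water, with its SE from limma's fit over 12 arrays, and a change passed where the Benjamini-Hochberg adjusted p over all 3439 probes was under 0.05. Within a group, arrays with the numbers 1 and 2, those with 3 and 4, and those with 5 and 6 were more alike than others (Spearman correlations of 0.889 to 0.987 within such number pairs and 0.825 to 0.917 between them), so means and SDs are over the 3 number pairs of a group. The labels do not say that arrays came from separate plants, and p-values reflect only the spread of these arrays, which may be technical. Arrays of both groups with the same number deviated from their group means together (correlations of 0.297 to 0.545 over all probes), so differences are also given per number. These correlations include values set to the lowest usable signal, which differed between arrays (log2 of -9.05 to -4.15). How far such values make the correlations was not tested. Over all probes the median log2 change was -0.12, and that of the 2584 probes above 0 on all arrays was -0.02.

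Staurosporine before ascorbate went with lower PSAN and LHB1B2 transcript and higher NdhS transcript, while the changes of PSBY, PSBW, PSB27 and CCB3 did not pass the test. Of the 7 genes, 2 passed as lower and 1 as higher, where 22.9% of all probes passed in either direction, 11.8% as lower and 11.1% as higher. All probes include those at 0 on some or all arrays, unlike the 7 genes. When the 2584 probes above 0 on all arrays were fitted alone, 848 passed, 440 as lower and 408 as higher. In that fit PSB27 passed as lower as well. The median log2 change of the 7 genes was -0.41. With each number pair averaged as 1 sample, none of the 7 passed in limma, where 0.262% of all probes did. An unadjusted limma p under 0.05 was then reached by 2 of the 7 (PSAN and NdhS) and by 654 of the 3439 probes.

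**Figure D1:**
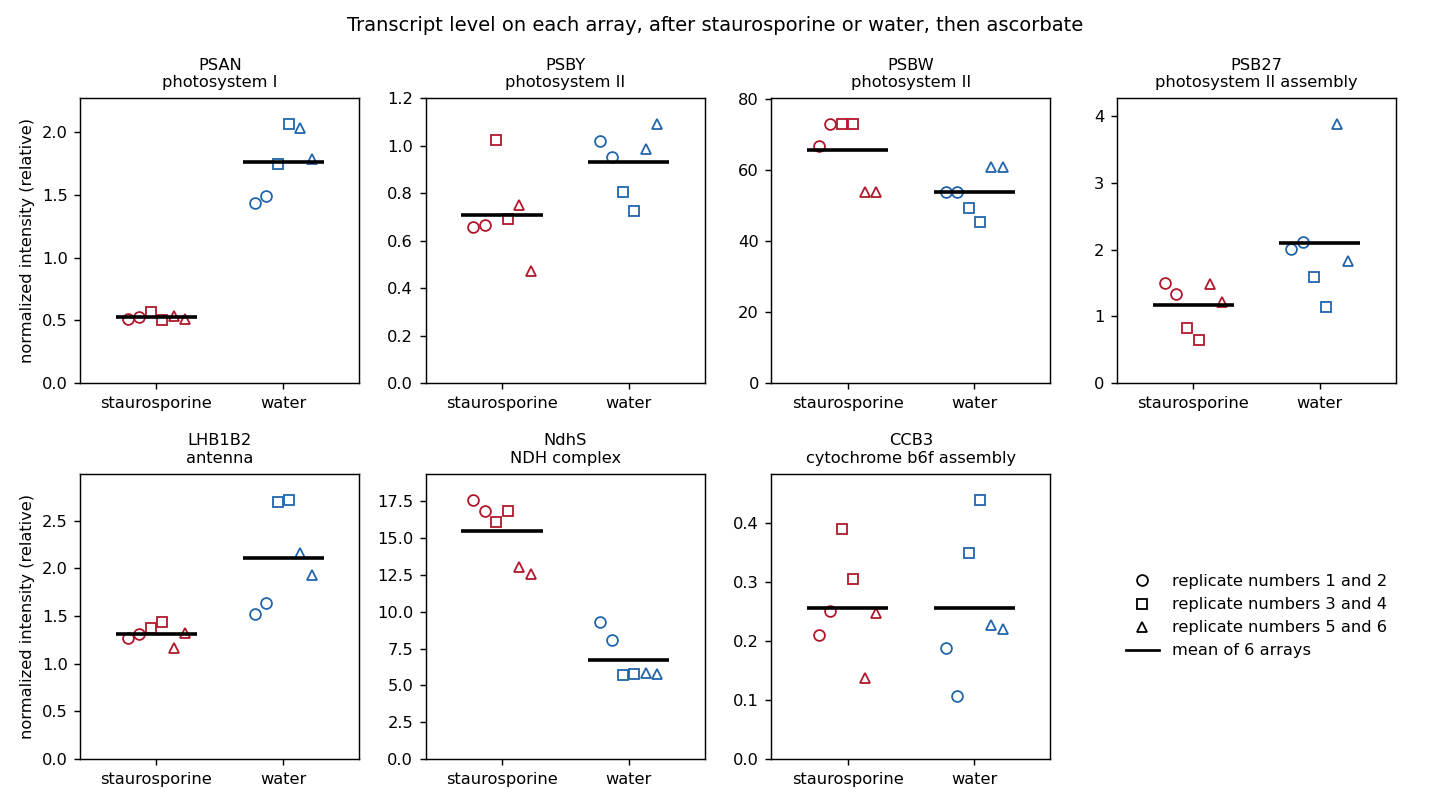
Normalized intensity (relative scale, linear axis from 0) of the 7 genes on each array, staurosporine arrays at the left and water arrays at the right of each panel. Markers give the number pair and the line the mean of 6 arrays. PSAN lies between 0.5003 and 0.564 on staurosporine arrays and between 1.43 and 2.06 on water arrays, and NdhS between 12.5 and 17.6 on staurosporine arrays and between 5.69 and 9.33 on water arrays.

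PSAN (AT5G64040) encodes a small photosystem I subunit on the lumen side of the thylakoid membrane, where plastocyanin docks. Its normalized intensity was lowest at 0.5003, 0.520 at the median and highest at 0.564 on the 6 staurosporine arrays, against 1.43, 1.77 and 2.06 on the 6 water arrays. The groups did not overlap, also in the deposited values (0.462 to 0.609 on staurosporine arrays and 1.43 to 2.16 on water arrays). Groups that did not overlap, with staurosporine lower, were seen for 7.68% of all probes. The mean was 0.524 ± 0.00681 after staurosporine and 1.76 ± 0.257 after water (SD, n = 3 number pairs), so that the fitted level was 0.301 times that after water. In RNA of whole samples, fewer cells that carry a transcript and less of it per cell cannot be told apart. The spread after staurosporine was small: the SD of log2 intensity over 6 arrays was 0.06 on staurosporine arrays and 0.22 on water arrays. The log2 change was -1.73 ± 0.13 (95% interval -2.02 to -1.45; limma adjusted p 9.13e-06). In same-numbered arrays 1 to 6 the log2 differences were -1.49, -1.50, -1.63, -2.04, -1.93 and -1.81. All were lower after staurosporine, as for 15.2% of all probes. The change passed in 24 of 26 other settings, and the exceptions were averaged number pairs (adjusted p 0.0591) and averaged pairs with a block for the pair (0.158). Of the probes above 0 on all arrays, 0.813% had a lower log2 change than PSAN.

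**Figure D2:**
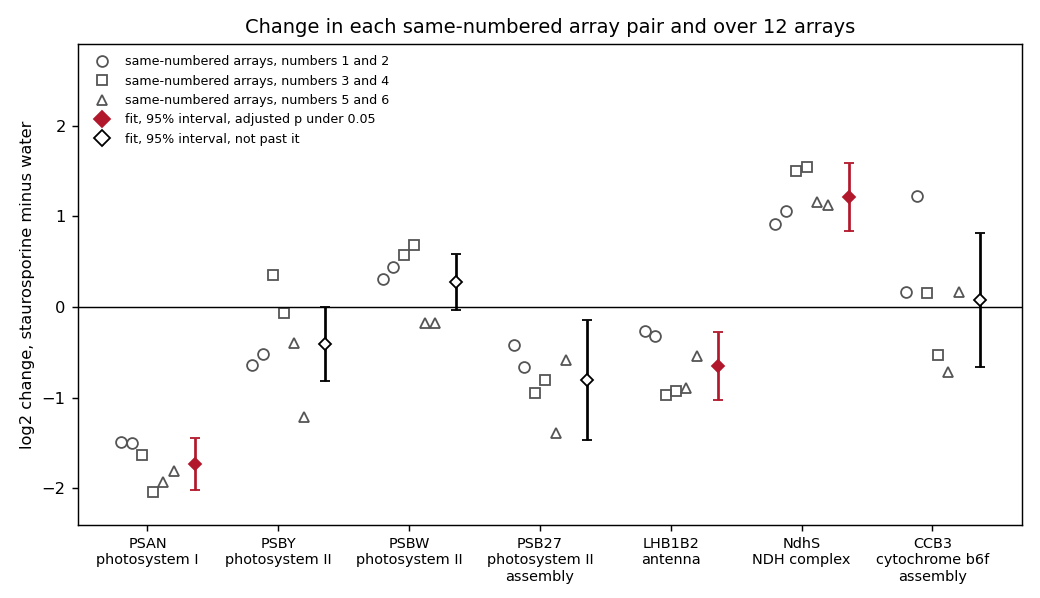
Log2 change, staurosporine minus water, for each gene. Open grey markers are the 6 differences of same-numbered arrays, by number pair, and diamonds are limma's fit over 12 arrays with its 95% interval, filled red where the adjusted p is under 0.05. PSAN, PSB27 and LHB1B2 are below 0 and NdhS above 0 at all 6 numbers.

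None of the 3 photosystem II genes passed. PSB27 (AT1G03600) encodes a lumenal protein that binds photosystem II during its assembly and repair. Its normalized intensity was lowest at 0.648, 1.28 at the median and highest at 1.50 on staurosporine arrays, against 1.13, 1.92 and 3.88 on water arrays. The groups overlapped, and numbers 3 and 4 were the lowest arrays of both groups. The mean was 1.17 ± 0.376 after staurosporine and 2.09 ± 0.746 after water (SD, n = 3 number pairs). This is a log2 change of -0.80 ± 0.30 (95% interval -1.46 to -0.14), which did not pass (limma adjusted p 0.0769). The 6 same-numbered log2 differences were all negative, at -0.42, -0.66, -0.95, -0.81, -1.39 and -0.58. A negative difference at all 6 numbers was seen for 15.2% of all probes. With the replicate number as a block PSB27 passed, with a limma adjusted p of 0.0162, where 23.5% of all probes passed. It also passed with arrays centred on their medians (0.0276), with array weights (0.0392), among probes above 0 on all arrays (0.0461) and without water replicate 4 (0.0413). It did not pass with number pairs averaged (0.335), or averaged with a block for the pair (0.222).

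PSBY (AT1G67740) encodes small membrane proteins of photosystem II. Its normalized intensity was lowest at 0.471, 0.680 at the median and highest at 1.02 on staurosporine arrays, against 0.724, 0.970 and 1.09 on water arrays. The groups overlapped through staurosporine replicate 3, which had the highest staurosporine value, and staurosporine replicate 5. Its log2 change of -0.41 ± 0.19 (95% interval -0.82 to -0.00488) did not pass (limma adjusted p 0.138). It was lower at 5 of 6 numbers, with log2 differences of -0.64, -0.51, 0.35, -0.07, -0.39 and -1.21. Number 3 was the exception, and without numbers 3 and 4 of both groups the log2 change was -0.69, with an adjusted p of 0.0383. Without numbers 1 and 2 it was -0.33 (0.479), and without numbers 5 and 6 it was -0.22 (0.573). It passed with array weights as well (0.0214).

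PSBW (AT2G30570) encodes a low-mass membrane subunit that holds photosystem II supercomplexes together. Its signal was between the third and the eighth brightest of each array. Quantile normalization sets a probe's value by its rank, so several arrays share 1 normalized value. The normalized intensity was lowest at 53.8, 70.0 at the median and highest at 73.1 on staurosporine arrays, against 45.4, 53.8 and 60.9 on water arrays. The groups overlapped, and on the deposited scale they did so over 34.3 to 75.1 on staurosporine arrays and 47.1 to 70.3 on water arrays. Its log2 change of 0.28 ± 0.14 (95% interval -0.04 to 0.59) did not pass either (limma adjusted p 0.195). The log2 differences were 0.31, 0.44, 0.57 and 0.69 at numbers 1 to 4 and -0.18 at both numbers 5 and 6. The sign depended on scaling: the change was 0.01 without further normalization, and centring each array on its median gave -0.20. Over the 26 other settings PSBW never passed.

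LHB1B2 (AT2G34420) encodes LHCB1.5, a chlorophyll a/b protein of the major light-harvesting complex of photosystem II. Its normalized intensity was lowest at 1.16, 1.32 at the median and highest at 1.44 on staurosporine arrays, against 1.52, 2.05 and 2.72 on water arrays. The groups did not overlap, as for 7.68% of all probes with staurosporine lower. Water replicates 1 and 2 (1.52 and 1.64) lay close to the staurosporine arrays and water replicates 3 and 4 (2.69 and 2.72) far above them. The mean was 1.31 ± 0.0826 after staurosporine and 2.11 ± 0.567 after water (SD, n = 3 number pairs), so that the fitted level was 0.637 times that after water. LHB1B2 thus passed, at a log2 change of -0.65 ± 0.17 (95% interval -1.02 to -0.28; limma adjusted p 0.0177). By number the log2 differences were -0.26, -0.32, -0.97, -0.92, -0.89 and -0.54, all negative, as for 15.2% of all probes. Of the probes above 0 on all arrays, 15.9% had a lower log2 change than LHB1B2. The change kept its call without any 1 array (adjusted p 0.0101 to 0.0387). It lost the call with number pairs averaged (0.280), or averaged with a block for the pair (0.294), with number pairs as a random block (0.0975), and without numbers 3 and 4 (0.0730) or 5 and 6 (0.138) of both groups. LHCB1 genes are a family of near-identical copies, and whether the probe also binds their transcripts was not tested.

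NdhS (AT4G23890), also called CRR31, encodes the subunit of the NDH complex at which ferredoxin binds. Its normalized intensity was lowest at 12.5, 16.4 at the median and highest at 17.6 on staurosporine arrays, against 5.69, 5.80 and 9.33 on water arrays. Normalized values of the groups did not overlap, as for 14.5% of all probes in either direction, of which 7.68% of all probes had staurosporine lower. Staurosporine replicates 5 and 6 were the lowest of their group and water replicates 1 and 2 the highest of theirs. The deposited values did overlap, at 9.13 to 18.5 on staurosporine arrays and 5.28 to 12.02 on water arrays, because water replicates 1 and 2 exceeded staurosporine replicates 5 and 6. The mean was 15.5 ± 2.37 after staurosporine and 6.74 ± 1.69 after water (SD, n = 3 number pairs), so that the fitted level was 2.32 times that after water. In log2 terms this rise was 1.22 ± 0.17 (95% interval 0.84 to 1.59), at a limma adjusted p of 0.000582. By number the log2 differences were 0.92, 1.06, 1.50, 1.54, 1.16 and 1.12, all positive. The share of all probes positive at all 6 numbers is not given here, and 15.2% were negative at all 6. Of the probes above 0 on all arrays, 96.1% had a lower log2 change. NdhS passed without any 1 array and without any 1 number pair, and lost the call with arrays centred on their medians (log2 change 0.77, adjusted p 0.178) and with number pairs averaged (0.118), or averaged with a block for the pair (0.171).

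CCB3 (AT5G36120) encodes a thylakoid membrane protein needed to attach a haem to cytochrome b6. Its signal was dim, and its normalized intensity was lowest at 0.137, 0.248 at the median and highest at 0.389 on staurosporine arrays, against 0.107, 0.223 and 0.439 on water arrays. The groups overlapped over nearly their whole range, and numbers 3 and 4 were the high arrays of both. The mean was 0.256 ± 0.0804 after staurosporine and 0.255 ± 0.126 after water (SD, n = 3 number pairs). CCB3 had a log2 change of 0.08 ± 0.34 (95% interval -0.66 to 0.82; limma adjusted p 0.890). That interval allows a level between 0.631 and 1.76 times that after water. The size depended on scaling: the log2 change was 0.60 without further normalization (adjusted p 0.427) and 0.38 after centring each array on its median (0.558). By number the log2 differences were 0.16, 1.22, 0.16, -0.53, -0.72 and 0.16.

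**Figure D3:**
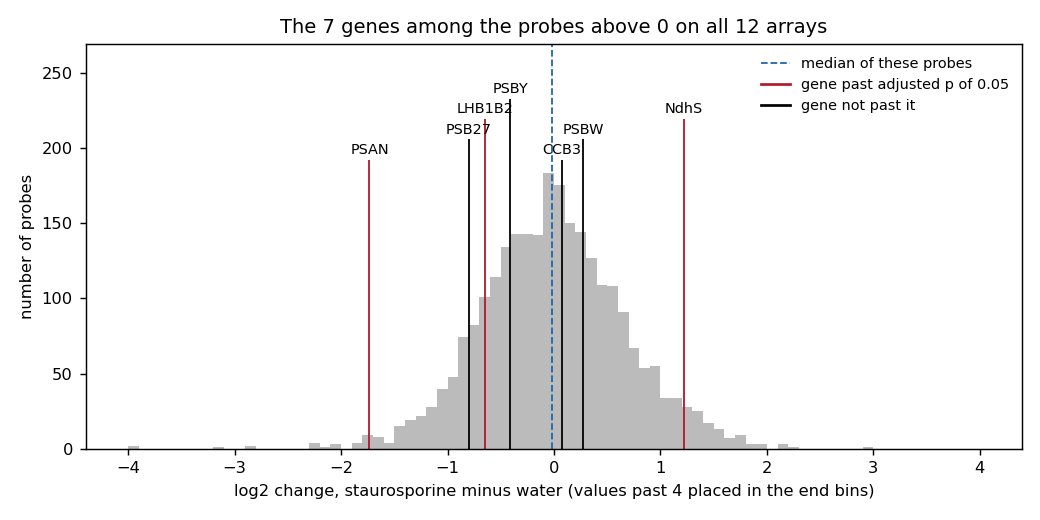
Histogram of the log2 change, staurosporine minus water, for the 2584 probes above 0 on all 12 arrays, with the 7 genes as vertical lines, red where the adjusted p is under 0.05, and the median of these probes as a dashed line. PSAN lies at -1.73 and NdhS at 1.22, towards opposite ends, and CCB3 at 0.08, after quantile normalization, lies near the median of -0.02.

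The changes of the 7 genes were then set against each other. In the log2 difference of a pair of genes on 1 array, any constant scaling of that array cancels. Quantile normalization is no constant scaling and does not cancel, so the differences depend on it. This log2 difference was compared between the groups with a 2-sided exact permutation test over 12 arrays, for all 21 pairs of genes. The smallest p this test allows is 0.00216, and with 3 number pairs against 3 it is 0.1. Permuting 12 arrays takes the arrays of a number pair as independent. In all, 15 of 21 pairs passed after Benjamini-Hochberg adjustment over the 21, and 13 of 21 reached the smallest p that number pairs allow.

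The photosystem I gene differed from every photosystem II gene. The change of PSAN was below that of PSBW by a log2 difference of -2.01 ± 0.15 (SE), below that of PSBY by -1.32 ± 0.20, and below that of PSB27 by -0.93 ± 0.33, with exact permutation p adjusted to 0.00413, 0.00413 and 0.0292. For PSAN and PSB27 the difference was similar in all 3 number pairs, at -0.95, -0.96 and -0.89, but its values overlapped between the groups. Its adjusted exact permutation p was 0.0682 without further normalization, and also with arrays centred on their medians. PSAN was also below the antenna gene LHB1B2, by -1.08 ± 0.10 (adjusted exact permutation p 0.00413), with -1.20, -0.89 and -1.15 in the 3 number pairs. Both genes had lower levels after staurosporine, and the change of PSAN was the larger.

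After quantile normalization PSBW changed otherwise than the other photosystem II genes and the antenna gene. PSBW exceeded PSB27 by 1.08 ± 0.32 and LHB1B2 by 0.93 ± 0.20, and PSBY was below PSBW by -0.69 ± 0.13 (adjusted exact permutation p 0.00758, 0.00413 and 0.00413). Without further normalization these 3 differences did not pass (adjusted exact permutation p 0.133, 0.0682 and 0.215). The changes of PSBY, PSB27 and LHB1B2 did not differ from each other beyond their spread. The differences were 0.39 ± 0.35 for PSBY minus PSB27, 0.24 ± 0.27 for PSBY minus LHB1B2 and -0.15 ± 0.40 for PSB27 minus LHB1B2 (adjusted exact permutation p 0.328, 0.433 and 0.706).

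The NDH gene stood above all photosystem and antenna genes. PSAN minus NdhS was -2.95 ± 0.23, PSB27 minus NdhS was -2.02 ± 0.35, LHB1B2 minus NdhS -1.87 ± 0.27, PSBY minus NdhS -1.63 ± 0.19 and PSBW minus NdhS -0.94 ± 0.15. Each of these 5 had the same sign at all 6 numbers, an adjusted exact permutation p of 0.00413, and passed without further normalization too. The cytochrome b6f assembly gene CCB3 was above PSAN (PSAN minus CCB3 -1.81 ± 0.31) and LHB1B2 (LHB1B2 minus CCB3 -0.73 ± 0.25), with adjusted exact permutation p of 0.00413 and 0.0210. NdhS minus CCB3 was 1.14 ± 0.43 with an adjusted exact permutation p of 0.0394, which was 0.623 without further normalization and 0.0820 in an exact test that flips the signs of the same-numbered differences. CCB3 did not differ beyond its spread from PSBY, PSBW or PSB27 in the test over 12 arrays. PSB27 minus CCB3 was -0.88 ± 0.60 (adjusted exact permutation p 0.222), and it passed in the sign-flip test (0.04375). The sign-flip test cannot go below a p of 0.03125 before adjustment, a value reached whenever all 6 signs agree.

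**Figure D4:**
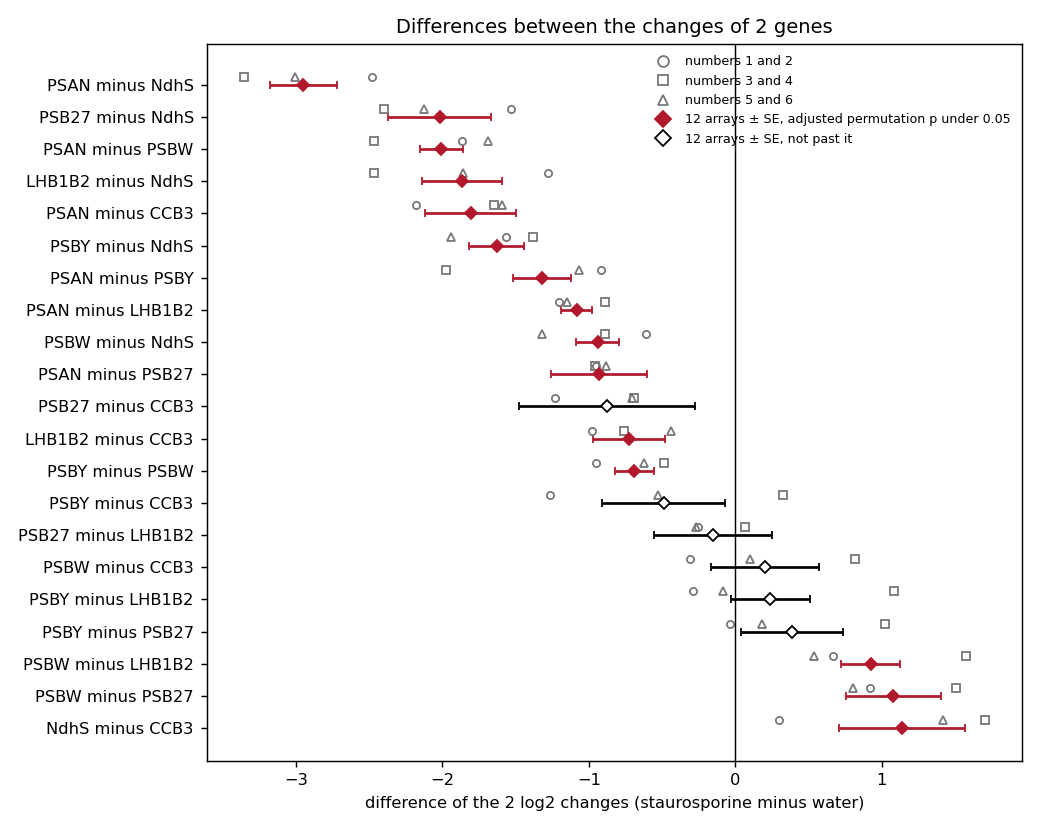
Differences between the log2 changes of a pair of genes, for all 21 pairs, sorted by value. Diamonds are the difference over 12 arrays ± SE, filled red where the adjusted exact permutation p is under 0.05, and grey markers are the 3 number pairs. PSAN minus NdhS, at -2.95, is the largest in size, and PSB27 minus LHB1B2, at -0.15, the smallest.

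Few other genes of the thylakoid could be read by name. Of 99 genes on 7 lists covering photosystem I, photosystem II, the antenna, the NDH complex, cytochrome b6f, electron carriers with ATP synthase, and assembly with regulation, 9 had a probe of their own, the 7 genes above and 2 more, and 8 others shared a probe with further genes and were not named from it. Of the 9, 2 passed as lower, 1 as higher and 6 did not pass, beside 11.8% lower and 11.1% higher among all probes. The 9 include 1 gene at 0 on nearly all arrays, named below. The first was AT1G22700, from the list of assembly and regulation, whose normalized intensity was lowest at 0.589, 0.691 at the median and highest at 0.771 on staurosporine arrays, against 0.541, 0.785 and 1.20 on water arrays. The groups overlapped, and its log2 change of -0.27 ± 0.21 did not pass (limma adjusted p 0.367). NdhN (AT5G58260), another NDH subunit, was listed at 0 on 5 of 6 staurosporine arrays and on all 6 water arrays, and is given no fold. The photosystem I list thus rests on PSAN alone, the antenna list on LHB1B2 alone and the NDH list on NdhS, so no list as a whole is described by these values.

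For each gene the 2 most similar profiles were sought among the 525 other single-gene probes above 0 on all arrays, by Pearson correlation of log2 intensity over the 12 arrays. These arrays share their groups and number pairs, so the values only describe likeness. Closest to PSAN were CML30, a calmodulin-like gene (r = 0.958), and AT5G50350 (0.955). Within groups, once the group means were removed, the correlations with PSAN were 0.253 for CML30 and 0.525 for AT5G50350. Closest to LHB1B2 were AT3G53470 (0.957) and AT3G06200 (0.931), which kept 0.886 and 0.810 within groups. Closest to NdhS were AT4G27700 (0.968) and AT1G72890 (0.965), both higher after staurosporine, with log2 changes of 1.35 and 1.03. The nearest profiles of the other genes were AT2G37510 (0.939) and AT5G66090 (0.923) for PSBW, AT1G50000 (0.890) and AT1G50020 (0.786) for CCB3, APS4, an ATP sulfurylase (0.843), and AT2G18920 (0.833) for PSBY, and AT2G29870 (0.805) and AT3G50350 (0.781) for PSB27. For scale, the largest changes past the threshold among single-gene probes were 3.02 for AT4G05030 and -2.18 for AT2G47360.

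**Figure D5:**
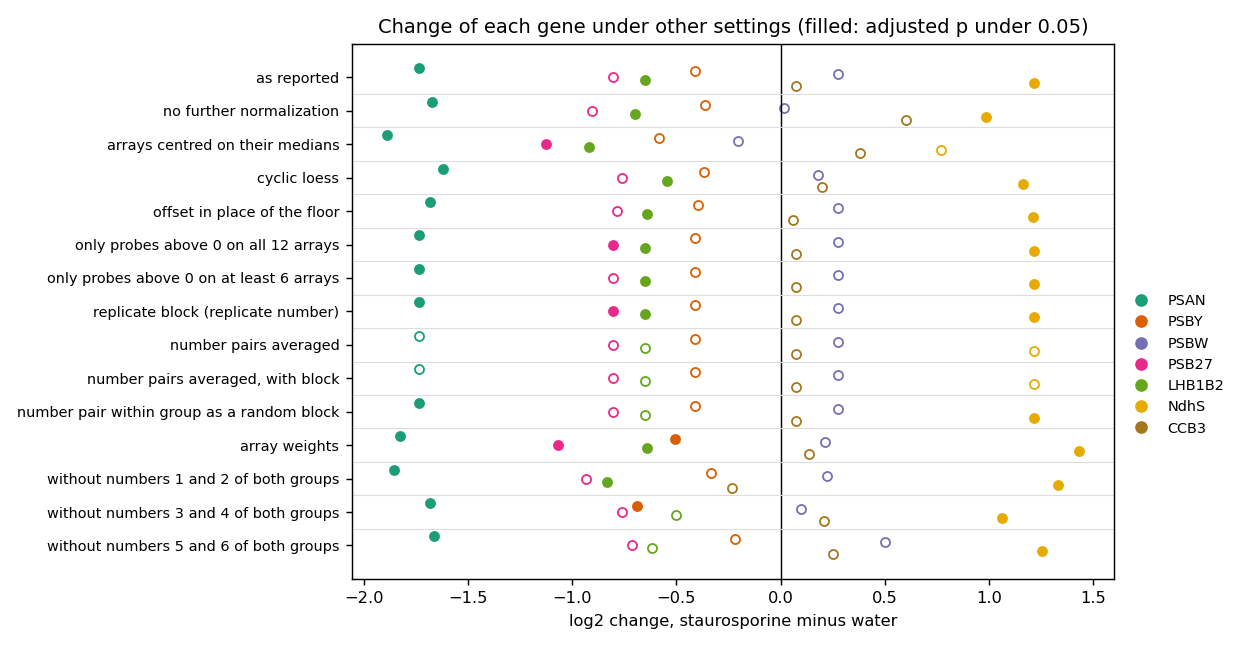
Log2 change of each gene (colours) as reported and under 14 other settings, filled where the limma adjusted p is under 0.05. PSAN stays between -1.89 and -1.62, NdhS is above 0 under each of these settings, and PSBW is on either side of 0.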

How the data were processed

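Total RNA of 12 samples was measured on single-channel arrays, 6 per group, grouped by sample title. The deposited table holds 1 relative intensity per probe and array, from 0 to 100. How the authors made these intensities, and on what scanner, is not stated here by any label. Array medians were 0.351 to 0.486 on staurosporine arrays and 0.252 to 0.419 on water arrays, and 10.3% to 15.2% of probes were at 0. Intensities were quantile normalized, values at 0 or under the 1st percentile of positive values of an array were set to it, and log2 was taken. The number of arrays limits the precision.

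The comparison used limma 3.58.1 (lmFit, eBayes, 2-sided, no block) under R 4.3.3, adjusted over 3439 probes, after the fit had been tested on simulated data. The simulated noise was independent between arrays, so that test did not cover the likeness within number pairs or between same-numbered arrays. Same-numbered arrays deviated together at every number, over all probes and with values at the lowest usable signal included. The numbers were taken to pair arrays on this ground alone, and fitting the number as a replicate block was an alternative. Other settings were further normalizations, an offset, filters on dim probes, averaged number pairs, array weights and left-out arrays. Probes were named by the platform annotation, updated to the symbols of TAIR10.1. Named are the 7 genes, listed thylakoid genes with a probe of their own, the 2 closest profiles of each gene, and the largest rise and fall. Genes, lists and tests were chosen with earlier results of these data known. Sequences and genome positions are not used here, since the arrays name no genome build.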

Additional observations from a re-analysis of the deposited data

Results flagged for a closer look

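The PSB27 level on water replicate 5, a normalized intensity of 3.88, stood apart from the nearest other water array at 2.11. On this linear scale the gap was 0.646 of the group's whole range, past Dixon's 95% limit for 6 arrays. The water group of PSB27 was the only one of the 14 groups checked (7 genes, 2 treatments) with such an array. With independent, normally distributed values the limit flags about 1 in 20 groups. These arrays were alike within number pairs, so the rate here is not known, and the cause of the flag was not tested. Changes were fitted on log2 intensity, where water replicate 5 was at 1.96, the nearest other water array at 1.08 and the lowest at 0.18. The gap is a smaller share of the range on that scale. The flag is given for linear intensity only and depends on the scale. Without water replicate 5 the log2 change of PSB27 was -0.60 (limma adjusted p 0.144).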

How the results depend on the processing

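Over 26 other settings PSAN, PSBY, PSB27, LHB1B2 and NdhS kept their sign, PSBW kept it in 25 and CCB3 in 23. Centring each array on its median gave log2 changes of -0.20 for PSBW, -1.12 for PSB27 (now past the threshold) and 0.77 for NdhS (no longer past it). With number pairs averaged, with or without a replicate block for the pair, PSAN (-1.73), LHB1B2 (-0.65) and NdhS (1.22) kept their size and lost their calls, and the probes past the threshold numbered 9 without and 2 with that block, against 788. The number pair as a random block gave 191 probes and ended the call of LHB1B2 (-0.65). PSB27 passed with the replicate number as a replicate block (-0.80) and among probes above 0 on all arrays (-0.80), and with array weights (-1.07), as did PSBY (-0.51). The replicate block changed no other call of the 7 genes. Without numbers 1 and 2 of both groups 472 probes passed and CCB3 was at -0.23. Without numbers 3 and 4 PSBY (-0.69) passed and LHB1B2 (-0.50) did not. Without numbers 5 and 6 LHB1B2 (-0.62) did not pass, and 410 probes did. Leaving out each array gave -0.96 to -0.60 for PSB27, which passed without water replicate 4 (-0.96). It gave -0.15 to 0.26 for CCB3, which was at -0.06 without staurosporine replicate 3 and -0.15 without water replicate 2. Without further normalization and with centring, PSBW minus CCB3 was -0.59 (0.20 as reported), and 10 of 21 pairs of genes differed in place of 15. The cause of these shifts was not tested.

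Of the called probes 48.4% were higher after staurosporine, 60.6% without further normalization, where the median change of all probes was 0.19, and 40.3% with centring, where it was -0.03. With array weights 1115 probes passed. For the pairs of genes, averaged number pairs leave 3 samples a group, and their exact test cannot go below 0.1, a value that 13 of 21 pairs reached. CCB3 was the dimmest against the lowest usable signal, and its interval is the widest of the 7.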
